A study of Mus musculus with 6 samples.

Results

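The conjugating and ester-cleaving enzymes of the liver were followed across the livers of 2 groups of male mice. They were taken as every gene whose single annotated symbol begins with Ugt1a, Ugt2 or Ugt3 (glucuronosyltransferases), with Sult and a digit (sulfotransferases) or with Ces and a digit (carboxylesterases). This rule found 36 of the 18193 genes that had a named probe set, 8 of Ugt2, 2 of Ugt3, 13 of Sult and 13 of Ces, and 0 of Ugt1a. All mice were 8 weeks old, of a mixed background, on standard chow and fasted for 24 h. By genotype, 3 arrays are from Mig-6 f/f livers and 3 from Mig-6 d/d livers. Mig-6 is another name for Errfi1, whose protein inhibits the epidermal growth factor receptor. What f/f and d/d stand for in detail, which recombinase was used and what drove it, and whether an array holds 1 animal or a pool are not given in the sources used here, so the p-values stand only for how far these arrays spread, which may be technical. By its title the study concerns cholesterol and bile acids, and the comparison here asks whether transcripts of these conjugating enzymes and esterases differed between the genotypes.

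Glucuronosyltransferases sit in the endoplasmic reticulum and move glucuronic acid from UDP-glucuronic acid onto bilirubin, steroids, bile acids and drugs. Sulfotransferases of the cytosol move a sulfuryl group from PAPS, the activated sulfate, onto phenols, catecholamines, oestrogens and hydroxysteroids. Carboxylesterases cleave esters and amides in the endoplasmic reticulum, among them drugs, acylglycerols and cholesteryl esters, and the products of that cleavage can be conjugated in turn. Many of these genes lie in tandem clusters of near-identical paralogs, so a probe set may also pick up a neighbour's transcript.

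Each value is the intensity of an Affymetrix probe set as deposited, and differences are d/d minus f/f of log2(intensity + 16) after the arrays were brought to a common distribution, called the scaled values. Genes whose probe sets were among the dimmest 40%, under an intensity of about 48.4, were not tested. Errfi1 fell, as a check of the labels. It read 5371, 5424 and 5686 in the f/f livers and 68.0, 61.8 and 59.6 in the d/d livers, a log2 difference of -6.10 ± 0.10 (limma, adjusted p = 4.91e-08). The hepatocyte markers Alb, the main plasma protein, and Ttr, a thyroid hormone carrier, were bright on every array, Alb between 33743 and 35800 and Ttr between 24777 and 26080. Of the 8 hepatocyte markers tested, 3 were positive and 5 negative, with a median log2 difference of -0.0075. Their sums ran from 137856 to 141642 in f/f and from 140124 to 142417 in d/d. Tat of this list was lower in d/d, with means of 8438 in f/f and 6140 in d/d and a log2 difference of -0.39. Summed markers of Kupffer cells ran from 3110 to 4368 in f/f and from 2672 to 3411 in d/d, with 10 of 11 negative and a median of -0.26. Summed markers of small intestine ran from 924 to 1186 in f/f and from 800 to 837 in d/d, most of it Fabp2, a fatty acid binding protein. Lct of the same list had means of 90.01 in f/f and 67.91 in d/d. Cdx2 had 66.43 and 66.45 and Muc13 107.7 and 98.51, while Vil1 and Alpi were under the dim limit. Sums of the endothelial, stellate, bile duct, lymphocyte, erythroid, pancreas and kidney lists overlapped between the genotypes. In whole liver, fewer cells of a type and less RNA per cell cannot be told apart, and the part of these cells in the results was not tested. On whole-array measures f/f replicate 3 was unlike the rest, with a mean correlation to the other arrays of 0.963 where theirs were 0.978 to 0.981 and 18S ribosomal RNA control intensities of 3807 where theirs were 218 to 455.2. Values without that array are therefore given beside the members the results turn on.

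None of the members passed an adjusted p of 0.05. Of the 36 members, 30 lay above this limit and were tested, and 0 passed in limma with Benjamini-Hochberg adjustment over 13718 genes, of which 0.0948% passed (13 genes). An unadjusted p under 0.05 was reached by 4 members as higher in d/d, Ces2g, Ces2e, Ugt2a3 and Sult1c2, and by 2 as lower, Ugt2b37 and Sult1d1. Over all genes these shares were 4.77% higher and 3.07% lower. On the scaled values the groups did not overlap for 4 members as higher and 3 as lower, the same 6 genes and Ugt2b5, where 7.9% and 6.79% of all genes were separate in these directions. The median log2 difference, d/d minus f/f, was -0.011 over the 30 members and -0.015 over all genes tested, with 15 members positive and 15 negative. The median absolute log2 difference was 0.147 for the members and 0.113 for all genes. Leaving out 1 array moved the difference of 22 of the 30 members by over 1.5 times or turned its sign, the other 8 being Ces1c, Ces2e, Ces2g, Sult1c2, Sult1d1, Ugt2b1, Ugt2b37 and Ugt2b5.

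Ces2g and Ces2e, carboxylesterases of a subfamily known to cleave drugs and acylglycerols, lie near each other on chromosome 8 and had the largest differences among the members, and the windows around their transcription starts are shown first. Each window holds 250 bases before and 50 after a start, taken from RefSeq on GRCm38.p6, chr8:104926010-104926309 and chr8:104961468-104961767, both on the plus strand. Capitals mark the longest run of letters the pair shares, 13 bases that begin 34 bases before the start of Ces2e and 24 before that of Ces2g.
Ces2e: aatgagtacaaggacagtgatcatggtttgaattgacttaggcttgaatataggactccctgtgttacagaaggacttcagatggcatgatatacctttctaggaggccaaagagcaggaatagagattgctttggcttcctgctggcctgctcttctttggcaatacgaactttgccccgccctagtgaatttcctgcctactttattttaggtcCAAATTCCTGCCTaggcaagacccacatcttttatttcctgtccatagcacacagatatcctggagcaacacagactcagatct
Ces2g: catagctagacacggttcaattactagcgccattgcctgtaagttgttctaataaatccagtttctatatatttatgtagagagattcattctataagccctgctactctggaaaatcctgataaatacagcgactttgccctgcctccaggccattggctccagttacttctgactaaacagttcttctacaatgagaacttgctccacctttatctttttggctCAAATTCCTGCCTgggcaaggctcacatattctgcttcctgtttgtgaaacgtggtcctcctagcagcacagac

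This run was found on either strand in 3 of the 32851 windows of the RefSeq table, those of Ces2e, Ces2g and the predicted gene Gm51858. The aligned windows of Ces2e and Ces2g had 57.0% identical positions, where other pairs among Ces2a, Ces2c, Ces2e, Ces2f, Ces2g and Ces2h had between 48.5% and 66.9%. The run was looked for after the values were known, and such a match is a description of the letters and not of a binding site.

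Ces2g had deposited intensities of 167.2, 188.4 and 171.1 in the f/f livers and of 291.1, 306.2 and 318.6 in the d/d livers. All d/d livers were above all f/f livers, with means of 176 ± 11.3 and 305 ± 13.7 (SD, n = 3), 1.74 times as high. The log2 difference on the scaled values was 0.75 ± 0.11 (SE, 95% interval 0.51 to 0.999, limma, adjusted p = 0.070), and 73 of the 13718 genes had a larger positive one. It did not pass, although 4 of 17 alternatives brought it under 0.05: a pseudocount of 64 (limma, adjusted p = 0.0459), the mean of a gene's probe sets in place of the highest (0.0334), array weights (0.00763) and the fit without f/f replicate 3 (0.0296, with a log2 difference of 0.72). Ces2g has 1 probe set, so the mean of probe sets left its log2 difference at 0.755. What changed there was its SE, from 0.106 to 0.0883, and the set of genes tested. Over all alternatives the adjusted p of Ces2g ran from 0.00763 to 0.416.

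Ces2e read 652.9, 453.0 and 594.2 in f/f and 889.7, 895.4 and 990.9 in d/d. Again the groups were separate, and replicate 2 was the lowest of the f/f livers. Means were 566.7 ± 103 and 925 ± 56.9 (SD, n = 3), a ratio of 1.63, with a log2 difference of 0.71 ± 0.15 (95% interval 0.37 to 1.06, limma, adjusted p = 0.195). Leaving out f/f replicate 2 gave 0.56 (limma, adjusted p = 0.305), and leaving out f/f replicate 3 gave 0.75 (0.092). Array weights, which count an array less the more it departs from its group, were 0.178 for f/f replicate 3 and 0.963 to 1.84 for the rest, and with them the adjusted p of Ces2e was 0.0364 in limma. Over all alternatives it ran from 0.0364 to 0.661.

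The third Ces2 gene tested, Ces2a, went the other way in sign and did not pass. It read 1656, 1405 and 2014 in f/f and 1555, 1379 and 1506 in d/d, with overlapping groups and a log2 difference of -0.16 ± 0.15 (95% interval -0.51 to 0.18, limma, adjusted p = 0.842), which was -0.024 without f/f replicate 3. Measured within each array against Ces2a, the d/d minus f/f difference was 0.92 for Ces2g and 0.88 for Ces2e, and between Ces2g and Ces2e it was 0.041. These values follow from the log2 differences of the single genes and are no further result. The pairs were set against each other after their values were seen and were not tested. Between Ces2e and Ces2g on the chromosome lies Ces2f, which with Ces2b was under the dim limit. Ces2c and Ces2h had no probe set of their own, so their transcripts were not compared, and only their windows were aligned.

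**Figure D1:**
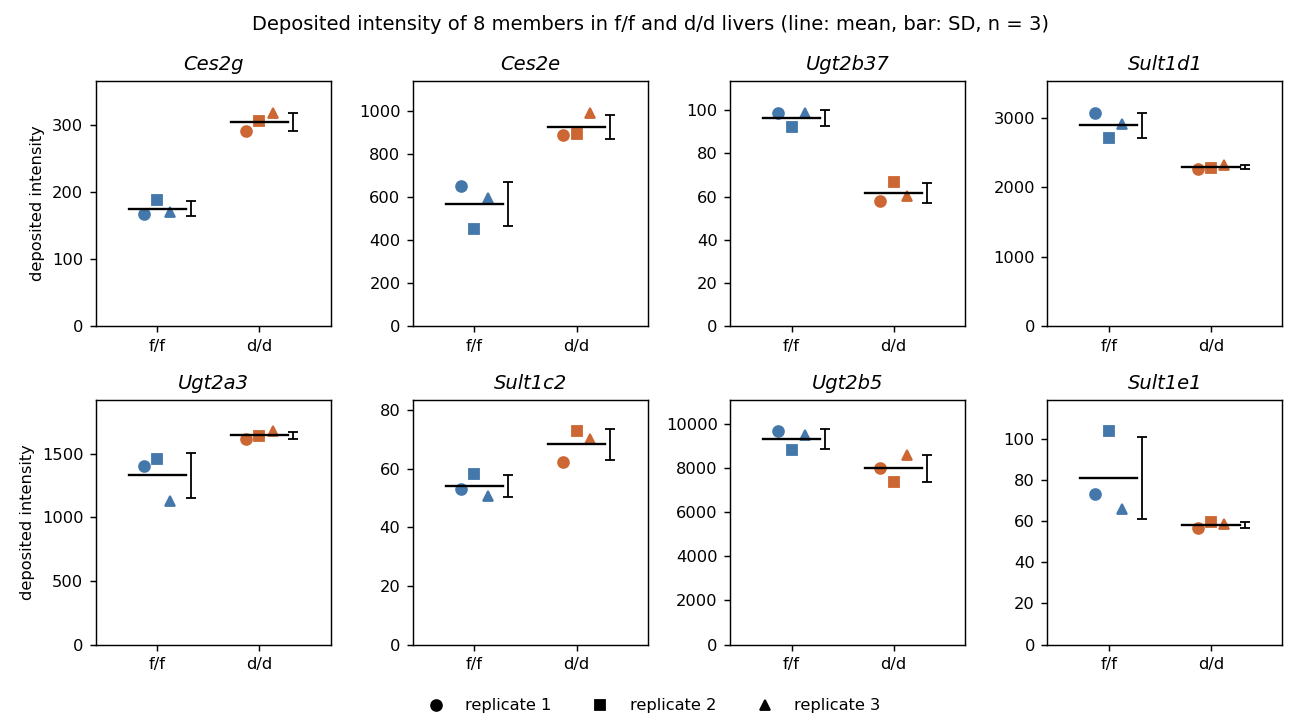
Deposited intensity (vertical axis, from 0) of 8 members in the f/f and d/d livers. Each point is an array, its shape the replicate number, the line the group mean and the bar the SD over 3 arrays. In every panel the groups are separate, upwards in d/d for Ces2g, Ces2e, Ugt2a3 and Sult1c2 and downwards for Ugt2b37, Sult1d1, Ugt2b5 and Sult1e1. Sult1e1 overlaps on the scaled values, and its single high point is f/f replicate 2.

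Carboxylesterases of the Ces1 subfamily showed small differences, with 5 of 6 positive and a median log2 difference of 0.058. Ces1c, the esterase secreted into mouse plasma, read 9250, 11218 and 9731 in f/f and 10095, 10709 and 10784 in d/d, and the groups overlapped (log2 difference 0.13 ± 0.10, 95% interval -0.11 to 0.37). Ces1g, which hydrolyses liver lipids, had 1115, 1530 and 1116 against 1429, 1297 and 1546, and again overlapped (0.21 ± 0.15, limma, adjusted p = 0.803). Ces1d, a triacylglycerol hydrolase, read 2680, 3102 and 3211 against 3216, 2961 and 3017. Its log2 difference was 0.052 ± 0.11, with 0.13 and 0.17 on its other probe sets, and -0.020 without f/f replicate 1. Ces1f, likewise a lipid hydrolase, had 0.064 ± 0.16. Ces1e, egasyn, which holds beta-glucuronidase in the endoplasmic reticulum, had 0.020 ± 0.17, and Ces1h -0.076 ± 0.13. Without f/f replicate 3, 3 of the 6 were positive, and Ces1e and Ces1f had -0.11 and -0.081. Of the other carboxylesterases, Ces5a, known as cauxin in kidney, had -0.060 ± 0.16, with -0.16 and 0.016 on its other probe sets, and Ces4a had 0.30 ± 0.36. Ces4a had the largest standard error among the members tested, with 97.1, 166.6 and 165.9 in f/f and 160.7, 323.0 and 94.0 in d/d, and without d/d replicate 2 its log2 difference was -0.12. The probe set annotated to Ces3a and Ces3b together, which counts as no member, read 10930, 10804 and 11151 in f/f and 12026, 11457 and 11907 in d/d. These intensities were separate, while the scaled values overlapped (log2 difference 0.11 ± 0.11).

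**Figure D2:**
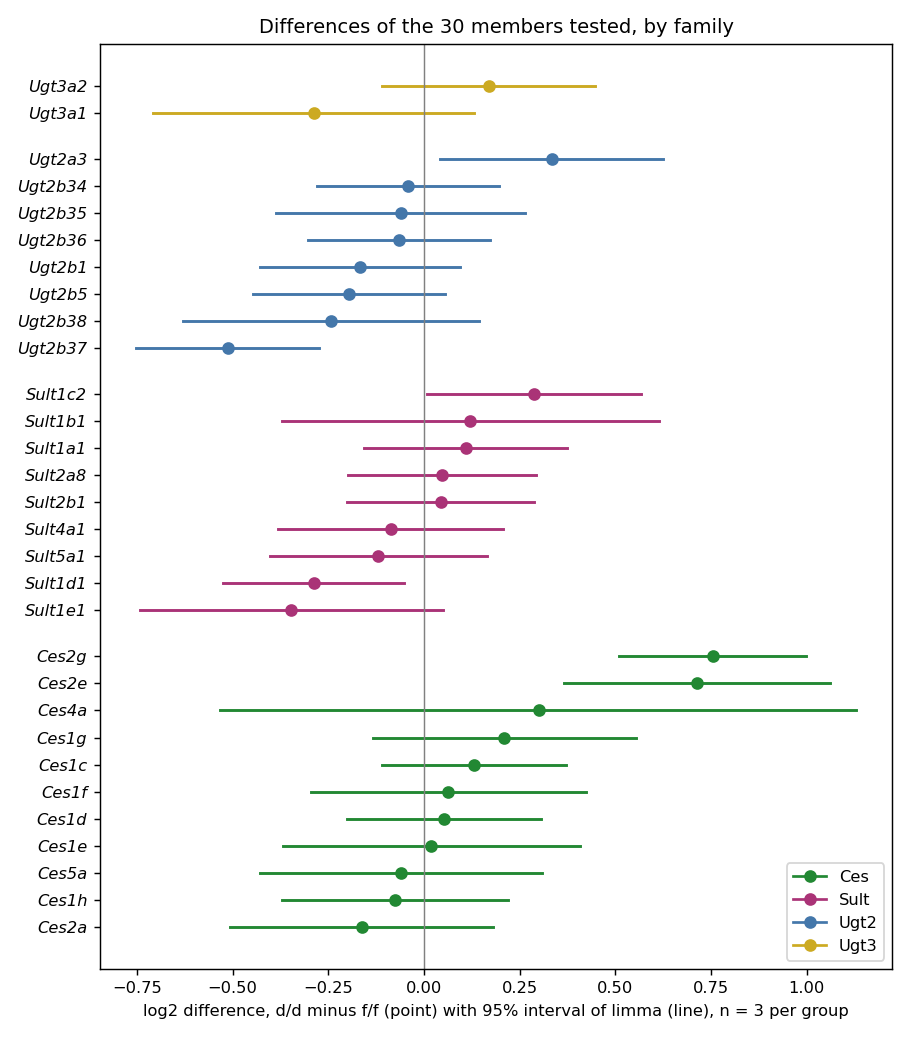
Log2 difference, d/d minus f/f, of the 30 members tested (points) with the 95% interval from limma (lines), by family. The intervals of Ces2g, Ces2e, Ugt2a3 and Sult1c2 lie above 0 and those of Ugt2b37 and Sult1d1 below, before any adjustment.

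Among glucuronosyltransferases, the 7 Ugt2b genes tested all had negative log2 differences, with a median of -0.17, and Ugt2a3 had a positive one. Each of the 7 kept a negative sign under all 3 scalings, while Ugt2b35 was positive when f/f replicate 1 (0.0077) or d/d replicate 2 (0.036) was left out. Their sizes were small, from -0.042 to -0.51, and 0 of the 7 passed in limma, with 1 at an unadjusted p under 0.05. Over all genes tested, 7342 of 13718 had a negative difference.

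Ugt2b37 had the largest of these differences. It read 98.5, 92.2 and 98.8 in f/f and 57.9, 66.7 and 60.4 in d/d, so that the groups were separate. The means were 96.5 ± 3.69 and 61.7 ± 4.53 (SD, n = 3), a ratio of 0.639, near the dim limit of 48.4, where a pseudocount of 16 understates the change. Its log2 difference was -0.51 ± 0.10 (95% interval -0.75 to -0.27, limma, adjusted p = 0.174). The adjusted p in limma was 0.0529 without f/f replicate 3 and 0.0177 with array weights, and ran from 0.0177 to 0.709 over all alternatives. With a pseudocount of 1 the difference was -0.61 and with 64 it was -0.34.

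Ugt2b38 is the paralog whose window around the start was the most like that of Ugt2b37 among the Ugt2 genes, with 87.3% identical positions (274 of 314 aligned columns), and the pair is shown because it is the most alike of the Ugt2 windows aligned. Ugt2a3, which lies between them, had 48.6% and 49.6% identical positions with them. The windows are from RefSeq on GRCm38.p6, chr5:87254739-87255038 and chr5:87424154-87424453, both on the minus strand, and capitals mark letters that differ from, or have no partner in, the other window.
Ugt2b37: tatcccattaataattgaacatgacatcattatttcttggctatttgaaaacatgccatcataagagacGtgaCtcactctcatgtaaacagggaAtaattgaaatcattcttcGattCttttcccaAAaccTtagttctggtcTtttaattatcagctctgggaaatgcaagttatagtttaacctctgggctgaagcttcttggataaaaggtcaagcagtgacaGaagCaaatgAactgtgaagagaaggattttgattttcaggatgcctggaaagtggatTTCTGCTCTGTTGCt
Ugt2b38: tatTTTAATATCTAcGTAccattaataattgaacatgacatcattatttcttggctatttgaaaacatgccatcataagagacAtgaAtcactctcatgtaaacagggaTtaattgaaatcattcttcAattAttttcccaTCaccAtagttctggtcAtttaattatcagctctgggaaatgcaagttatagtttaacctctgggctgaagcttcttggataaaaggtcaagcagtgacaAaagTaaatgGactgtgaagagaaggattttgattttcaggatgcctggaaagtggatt

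There were 12 mismatches and 28 columns with a gap. Ugt2b38 read 114.5, 93.8 and 171.2 in f/f and 105.0, 96.6 and 102.0 in d/d. These groups overlapped, and the high f/f value was that of replicate 3, the array that stood apart. The log2 difference was -0.24 ± 0.17 (limma, adjusted p = 0.801) and -0.065 without that array.

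Short elements were searched on both strands of the windows of 30 members, 33 windows in all. AGGTCA, the hexamer bound by nuclear receptors, was in 10 of the 33 (30.3%) and in 16.3% of the 32851 windows of the table. The forkhead element TGTTTAC was in 12.1% of members' windows and 3.65% of all, GTTAAT, part of the HNF1 element, in 15.2% and 7.1%, the AP-1 element TGANTCA in 24.2% and 7.81%, and TATAAA in 21.2% and 13.6%. The STAT5 element TTCNNNGAA was in 9.09% and 8.3%, CCAAT in 30.3% and 37.4%, and the E-box CACGTG in 0 of 33 and 7.15%. Paralogs share descent, so their windows are not independent. Ugt2b37 and Ugt2b38 both held AGGTCA, 39 and 25 bases before the start, and both held TGTTTAC and TGANTCA. Of these letters the Ces2g window held only CCAAT, on the minus strand, and the Ces2e window none, and no matches in the windows shown overlapped.

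Ugt2a3 lies between Ugt2b37 and Ugt2b38 on chromosome 5 and had the opposite sign. It read 1402, 1461 and 1126 in f/f and 1617, 1642 and 1674 in d/d. The d/d livers were all above the f/f livers, among which replicate 3 was the lowest. Its log2 difference was 0.33 ± 0.13 (95% interval 0.043 to 0.63, limma, adjusted p = 0.554) and 0.22 without f/f replicate 3. Within arrays, Ugt2a3 minus Ugt2b37 differed by 0.85 between the genotypes, a pair chosen after its values were seen. That value follows from the log2 differences of the single genes.

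Ugt2b5 read 9678, 8833 and 9526 in f/f and 8004, 7381 and 8629 in d/d, separate groups with a log2 difference of -0.20 ± 0.11 (limma, adjusted p = 0.751). Ugt2b1 read 5355, 4740 and 5444 against 4405, 4418 and 4770, which overlapped at -0.17 ± 0.11. Both are glucuronosyltransferases of mouse liver that take steroids and drugs. The other tested genes of the cluster had log2 differences closer to 0: Ugt2b36 -0.066 ± 0.10, Ugt2b35 -0.061 ± 0.14 and Ugt2b34 -0.042 ± 0.10, the latter with -0.050 on its other probe set. Their 95% intervals reached from -0.39 at the lowest to 0.26 at the highest.

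The Ugt1a genes, among them Ugt1a1, the enzyme that conjugates bilirubin, share their last exons, and 3 probe sets are annotated to 8 of them at once. They stand for no single gene and for no member. Their log2 differences were 0.045 ± 0.12, -0.047 ± 0.11 and -0.0034 ± 0.11, with overlapping groups and 95% intervals within -0.29 and 0.32. The probe set of Ugt2a1 and Ugt2a2 together read 74.9 to 89.2 in f/f and 81.9 to 94.1 in d/d, and only on the scaled values were its groups separate (0.10 ± 0.10).

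Ugt3 enzymes use sugars other than glucuronic acid, and the pair had opposite signs. Ugt3a1 read 629.9, 520.6 and 633.9 in f/f and 573.0, 535.7 and 365.6 in d/d, overlapping groups in which d/d replicate 3 was the lowest, with a log2 difference of -0.29 ± 0.18 (limma, adjusted p = 0.784) and -0.090 without that array. Its other probe set also had -0.29. Ugt3a2 read 3950, 3605 and 3232 against 4204, 4092 and 3636, which overlapped at 0.17 ± 0.12 (limma, adjusted p = 0.803).

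**Figure D3:**
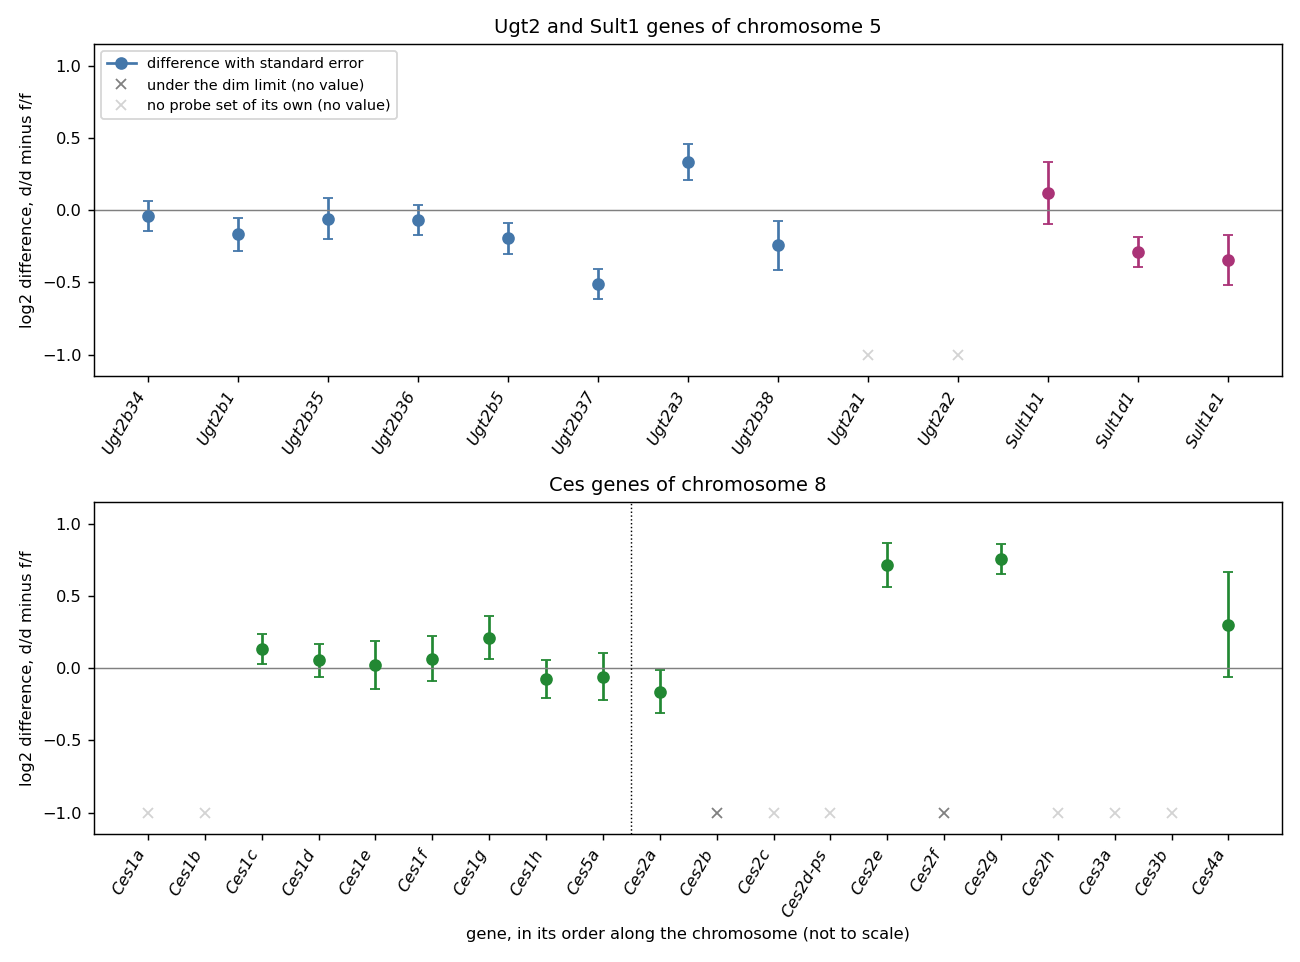
Log2 difference, d/d minus f/f, with its standard error (n = 3 per group) for the Ugt2 and Sult1 genes of chromosome 5 and the Ces genes of chromosome 8, in their RefSeq order and not to scale. Crosses carry no value: dark ones are dim, pale ones have no probe set of their own, and the dotted line parts separate stretches of the chromosome. Ugt2a3 at 0.33 stands beside Ugt2b37 at -0.51, and Ces2e and Ces2g are at 0.71 and 0.75.

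Sulfotransferases had a median log2 difference of 0.043 over 9 tested genes, 5 positive and 4 negative. Without f/f replicate 3 the median was -0.052, but there Sult4a1 was under the dim limit, so the set of genes also changed. Sult1d1, which sulfates dopamine and other catecholamines, read 3065, 2706 and 2902 in f/f and 2260, 2273 and 2322 in d/d. The groups were separate and the d/d livers lay close together. Means were 2891 ± 179 and 2285 ± 32.6 (SD, n = 3), a ratio of 0.790, with a log2 difference of -0.29 ± 0.10 (95% interval -0.53 to -0.051, limma, adjusted p = 0.519), which was -0.29 also without f/f replicate 3. Its other probe set had -0.15 ± 0.10, and over all alternatives the adjusted p in limma ran from 0.199 to 0.988.

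Sult1e1, the oestrogen sulfotransferase, is the neighbour of Sult1d1. It read 73.4, 103.7 and 66.1 in f/f and 56.7, 59.6 and 58.9 in d/d, not far above the dim limit. The deposited intensities were separate, while on the scaled values the groups overlapped, and f/f replicate 2 was the highest. Its log2 difference was -0.35 ± 0.17 (95% interval -0.74 to 0.050, limma, adjusted p = 0.704), which was -0.16 when f/f replicate 2 was left out and -0.51 when f/f replicate 3 was. Sult1c2 was as dim, with 53.1, 58.2 and 50.8 in f/f and 62.4, 72.8 and 70.0 in d/d. These groups were separate, at a log2 difference of 0.29 ± 0.12 (limma, adjusted p = 0.622) and 0.20 without f/f replicate 3.

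The main phenol sulfotransferase of liver, Sult1a1, read 5139, 6302 and 5067 in f/f and 5596, 5700 and 5777 in d/d (log2 difference 0.11 ± 0.12, overlapping). It was 0.028 without f/f replicate 3 and 0.19 without its highest array, f/f replicate 2. Sult2a8, a hepatic enzyme of bile acid sulfation, read 5037, 4730 and 4832 against 5206, 4743 and 4764, with a log2 difference of 0.047 and a 95% interval of -0.20 to 0.29. Sult1b1, which takes thyroid hormones, had 0.12 ± 0.21 and -0.13 without f/f replicate 3, whose 145.0 was its lowest reading. Sult2b1, which sulfates cholesterol, had 0.043 ± 0.11, Sult4a1, a brain form, -0.087 ± 0.13 and Sult5a1 -0.12 ± 0.12. Sult4a1 had its d/d mean under the dim limit. The 6 members under the limit were Ces2b, Ces2f, Sult1c1, Sult2a2, Sult3a1 and Sult6b1, whose 7 probe sets read from 12.3 to 44.0 on all arrays and were not tested. Sult3a1 and the Sult2a genes other than Sult2a8 are known as female-biased in mouse liver.

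Genes that supply, steer or complement these enzymes were taken as 7 lists, and 0 of their 84 tested genes passed in limma over all genes, while 16 had an unadjusted p under 0.05, 8 higher and 8 lower, beside 4.77% and 3.07% of all genes. The list of other transferases held 5 of those lower and 1 of those higher. For glucuronidation, 8 genes of UDP-sugar supply and transport had a median log2 difference of 0.099. Ugp2, which makes UDP-glucose, read 3142, 3177 and 2494 in f/f and 3635, 3646 and 3806 in d/d, separate groups at 0.38 ± 0.12 (limma, adjusted p = 0.438) and 0.27 without f/f replicate 3. For sulfation, 0 of 7 genes of PAPS supply reached an unadjusted p under 0.05 and the median was -0.016, with Papss1 and Papss2, the PAPS synthases, at 0.14 and -0.023.

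Among 12 hydrolases of conjugates and other esters, Nceh1, a neutral cholesteryl ester hydrolase, read 186.7, 163.5 and 168.1 against 106.5, 115.4 and 109.3. The groups were separate, at -0.56 ± 0.11 (limma, adjusted p = 0.154, range over alternatives 0.0154 to 0.661). Nceh1 passed without f/f replicate 3 (limma, adjusted p = 0.0456) and with array weights (0.0154). Arsb, a lysosomal sulfatase, had 0.39 ± 0.11 and Bche, butyrylcholinesterase, 0.35 ± 0.11, with separate groups and adjusted p of 0.329 and 0.438 in limma. With the mean of probe sets in place of the brightest, Arsb had 0.14.

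The 17 receptors and transcription factors tested had a median of 0.087. The xenobiotic receptors Nr1i2 and Nr1i3 had -0.13 and -0.23 and the hepatocyte factor Hnf4a -0.015, none with an unadjusted p under 0.05. Nfe2l2, which drives antioxidant and conjugation genes, read 372.8, 291.4 and 202.2 against 378.9, 392.2 and 459.4, at 0.53 ± 0.21 (limma, adjusted p = 0.587). It was 0.29 without f/f replicate 3 and 0.27 with the mean of probe sets. Nr3c1, the glucocorticoid receptor, had 0.29 ± 0.10 and Foxa1, a forkhead factor, 0.37 ± 0.16. Of 9 exporters and importers of conjugates, 7 were negative and 0 reached an unadjusted p under 0.05, with a median of -0.093.

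Transferases of other conjugation routes had the widest spread, from -1.48 to 0.93 over 22 genes, with 16 negative. Nnmt, which methylates nicotinamide, read 1341, 3739 and 2305 in f/f and 876.5, 952.1 and 605.6 in d/d, at -1.48 ± 0.34 (limma, adjusted p = 0.231). Inmt, an indolethylamine methyltransferase, read 1483, 1737 and 1203 against 2798, 2796 and 2685, at 0.93 ± 0.14 (limma, adjusted p = 0.091, range over alternatives 0.00571 to 0.491). Gstm2, a glutathione transferase, had 936.7, 706.0 and 482.1 against 339.5, 331.9 and 390.9, at -0.92 ± 0.22 (limma, adjusted p = 0.236, range over alternatives 0.0068 to 0.794). All 3 had separate groups. Inmt and Gstm2 passed without f/f replicate 3 (limma, adjusted p = 0.0192 and 0.0136). Among 9 oxidative partners, Cyp4a14, a fatty acid hydroxylase, had -1.60 ± 0.57 with overlapping groups, Cyp3a11 0.37 ± 0.15 and Cyp1a2 -0.27 ± 0.12, with adjusted p in limma of 0.518, 0.618 and 0.622. Cyp3a11 had 0.21 when f/f replicate 2 was left out.

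**Figure D4:**
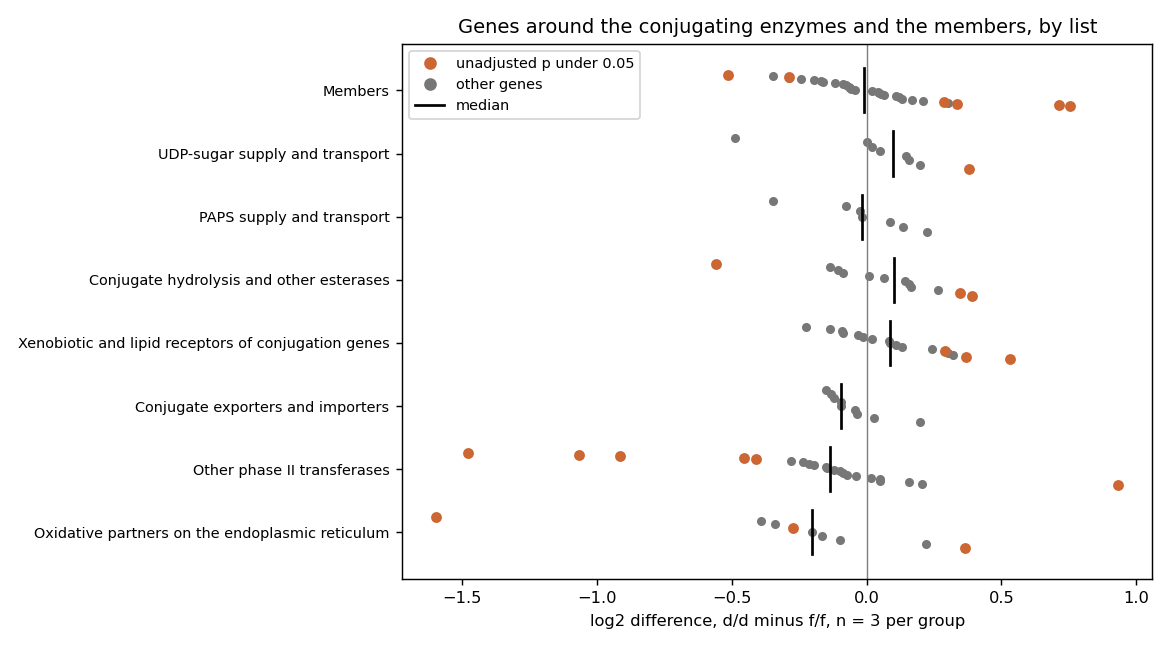
Log2 difference, d/d minus f/f (horizontal axis, n = 3 per group), of the 30 members and of the genes tested in 7 lists around them (rows). Each point is a gene, orange where its unadjusted p is under 0.05, and the bar is the median. Medians lie between -0.20 and 0.10, and the lowest points are Cyp4a14 at -1.60 and Nnmt at -1.48 and the highest Inmt at 0.93.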

How the data were processed

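Per the labels' protocols, liver RNA was extracted and biotin labelled for Affymetrix arrays. The authors deposited a linear intensity for each of 45101 probe sets on 6 arrays, and their summarization, correction, scaling and genome build are not given in the sources used here. Genes were named by the platform annotation, where 34945 probe sets had 1 symbol, 932 several and 9160 none, besides 64 controls, and those without a single symbol stayed out of the gene tests. Values were log2(intensity + 16), quantile normalized because array medians and quartiles differed by up to 0.185 log2, and differences on this scale understate changes of dim genes. The probe set with the highest mean stood for a gene, and the lowest 40% by mean were left out (48.4 in intensity, 6.01 in log2). The genotypes were compared with limma 3.58.1 in R 4.3.3 (4.19 prior and 4 residual degrees of freedom), without covariates, with Benjamini-Hochberg adjustment over 13718 genes, and ± is the standard error unless SD is named. The test was also run on simulated data. These had the same spread on every array for a given gene, so they did not cover an array that departs like f/f replicate 3.

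Of the probe sets used for tested members, 3 (Ces1f, Ugt2b34 and Ugt3a1) are of a type that several transcripts share and 1 (Ces5a) of a type prone to cross-hybridization. Named are all members, and up to 3 genes of each other list by unadjusted p. Papss1, Papss2, Nr1i2, Nr1i3 and Hnf4a are named for their roles, outside this rule. The members and lists were chosen with earlier results of these data known. Windows around starts came from RefSeq (GRCm38.p6) for 30 of the 36 members. Identity was counted over a global alignment. Same-numbered arrays did not deviate together (correlations of -0.0033, -0.144 and -0.465), so the number was not taken as a pairing. Median deposited intensities of the arrays were 55.6 to 65.4, and the number of arrays limits precision. Alternatives were other scalings, pseudocounts, dim filters, choices of probe set and variance models, weights per array, a block for the replicate number, and leaving out each array. Python 3.11.15, pandas 2.3.3 and matplotlib 3.10.9 were used for tables and figures.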

Additional observations from a re-analysis of the deposited data

How the results depend on the processing

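Each of the 30 members tested was refitted under up to 17 alternatives, and 22 of them kept their sign in all that gave a value. The number of members past the threshold, 0, was 1 with a pseudocount of 64 and with the mean of probe sets (Ces2g), 3 with array weights (Ces2g, Ces2e and Ugt2b37) and 0 to 1 with 1 array left out, the 1 being Ces2g without f/f replicate 3. Members with an unadjusted p under 0.05 were 2 lower and 4 higher. With the replicate block they were 1 and 2, and with 1 array left out 1 to 3 and 2 to 5. The replicate block left 0 members past the adjusted threshold, with adjusted p in limma of 0.288 for Ces2g, 0.415 for Ces2e and 0.593 for Ugt2b37. Over all genes tested, 13 passed, 215 with array weights, 21 with the trended robust variance, 6 with the replicate block and 4 to 91 with 1 array left out, the 91 without f/f replicate 3. When every probe set above the dim limit was tested, 20 of 27021 passed, a count of probe sets and not of genes. Median differences with 1 array left out were -0.158 to -0.0713 for Ugt2, -0.144 to 0.0723 for Ugt3, -0.0521 to 0.0206 for Sult and 0.0581 to 0.111 for Ces. Of these, the -0.0521 was without f/f replicate 3, where Sult4a1 was under the dim limit and not counted. The Sult median was -0.0735 with array weights, and that of Ugt3 was -0.287 when every probe set was counted, where Ugt3a1 enters with both of its probe sets. Of the other lists, array weights gave 1 call in UDP-sugar supply (Ugdh), 1 among hydrolases (Nceh1) and 3 among other transferases (Inmt, Gstm2 and Gsta2), and the trended robust variance gave 1 (Inmt). With 1 array left out the hydrolases had 0 to 1 and the transferases 0 to 3. Ugdh and Gsta2 are named for these counts, after their values were seen. Signs turned for 8 members, 0 of them past the threshold. With array weights these were Ces1e (-0.111), Ces1f (-0.0753), Ces5a (0.0805) and Sult1b1 (-0.128). With 1 array left out the ranges were -0.113 to 0.167 for Ces1e, -0.0811 to 0.174 for Ces1f and -0.153 to 0.078 for Ces5a, where the third array of either genotype turned the sign, and -0.13 to 0.251 for Sult1b1, without f/f replicate 3. They were -0.118 to 0.662 for Ces4a and -0.00607 to 0.0927 for Sult2b1, without d/d replicate 2, -0.17 to 0.0364 for Ugt2b35, which turned when f/f replicate 1 was left out or d/d replicate 2 was, and -0.0204 to 0.102 for Ces1d, without f/f replicate 1. The cause was not tested. With 3 arrays a group, differences of the size seen here had wide intervals, and the 6 members under the dim limit were not tested.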
